A study of Mus musculus with 16 samples.

Results

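The genes described here are 34 that mark macrophages and other myeloid cells, measured in mouse mammary tumours on an Illumina bead array. A gene counted as measured if a probe annotated with its symbol had a detection p-value under 0.05 on at least 2 of the 16 arrays, and the brightest such probe stood for it. By this rule 25 of the 34 genes were measured, among 9903 genes tested in all. Every tumour carried the MMTV-Neu transgene, in which a mouse mammary tumour virus promoter drives the Neu oncogene in mammary epithelium, in animals of strain FvB, and every tumour was under 1.0 cm across. The 9 single TIC tumours were secondary tumours, each grown from 1 transplanted tumour initiating cell (TIC), the 2 lin- tumours were secondary tumours grown from transplanted cells lacking lineage markers, and the 5 primary tumours arose in the transgenic animals themselves. The labels give neither the age of the animals nor the genotype of the recipients, and the names of secondary tumours begin with WT and those of primary tumours with N. A difference between recipients and transgenic animals therefore cannot be told apart from one between secondary and primary tumours.

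Macrophages arise from circulating monocytes and from precursors seeded in tissues before birth, and they depend on signalling from Csf1 through its receptor Csf1r. They engulf dying cells and immune complexes. For this they use activating Fc receptors, which signal through the adaptor Fcer1g, and Trem2, which signals through the adaptor Tyrobp. Complement C1q, scavenger receptors and lysosomal proteases also take part. In MMTV-driven mammary tumours macrophages are a large part of the stroma. The RNA came from whole tumour tissue, so fewer macrophages and less of an RNA per macrophage cannot be told apart in these values.

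Not all defining markers of macrophages could be measured. Emr1, which encodes the macrophage marker F4/80, had no probe under that symbol. RefSeq lists it as Adgre1, which was detected on all 16 arrays and is described apart from the 25. Cd68, Csf1r and Mpeg1 had no probe named for them on the array. Fcer1g, Ccr2, Itgam, Itgb2 and Msr1 each had 1 probe that was detected on 0 arrays, so the integrin CD11b/CD18, the monocyte receptor Ccr2 and the scavenger receptor Msr1 were not well above background in any tumour. Of the 25 measured genes, 23 were detected on all 16 arrays. The exceptions were Cd163, detected on 3 arrays (single TIC tumours 4 and 7 and lin- tumour 2), and Spi1, detected on 3 (single TIC tumour 9, lin- tumour 1 and primary tumour 4). Cd163 thus passed the rule only through secondary tumours.

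Mean raw intensity was 961 ± 52.4 in single TIC tumours, 961 ± 85.8 in lin- tumours and 882 ± 57.1 in primary tumours (SD, n = 9, 2 and 5). Between 12513 and 13163 of 25697 probes were detected per array. Levels below are log2 normalized intensities of 1 probe per gene, comparable between tumours but not between genes. The arrays' number, not a read depth, limits the precision.

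Promoter sequences are shown for 4 members whose levels followed different courses among the single TIC tumours: C1qb and C1qc, which were highest in tumours 1, 5 and 9, and Cd163 and Mrc1, which were highest in tumours 4 and 7. Each runs from 250 bases before to 50 bases after the transcription start in RefSeq's annotation of GRCm38.p6, 5′ to 3′ on the gene's own strand. Capitals mark GAGGAA on either strand (TTCCTC on the other strand), a core that the myeloid transcription factor PU.1, the product of Spi1, can bind.
C1qb, GRCm38.p6 chr4:136886151-136886450, minus strand: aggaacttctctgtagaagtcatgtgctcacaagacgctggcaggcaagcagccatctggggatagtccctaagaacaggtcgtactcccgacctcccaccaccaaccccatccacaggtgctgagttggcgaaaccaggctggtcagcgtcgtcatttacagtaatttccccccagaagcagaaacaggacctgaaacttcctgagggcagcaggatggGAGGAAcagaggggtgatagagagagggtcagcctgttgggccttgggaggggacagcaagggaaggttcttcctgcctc
C1qc, GRCm38.p6 chr4:136892865-136893164, minus strand: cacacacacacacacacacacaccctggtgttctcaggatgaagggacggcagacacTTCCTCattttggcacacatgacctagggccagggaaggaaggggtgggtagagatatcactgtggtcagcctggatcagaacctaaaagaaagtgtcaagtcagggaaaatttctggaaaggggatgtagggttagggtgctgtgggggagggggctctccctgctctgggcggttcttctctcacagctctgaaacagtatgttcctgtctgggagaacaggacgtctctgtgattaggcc
Cd163, GRCm38.p6 chr6:124304401-124304700, plus strand: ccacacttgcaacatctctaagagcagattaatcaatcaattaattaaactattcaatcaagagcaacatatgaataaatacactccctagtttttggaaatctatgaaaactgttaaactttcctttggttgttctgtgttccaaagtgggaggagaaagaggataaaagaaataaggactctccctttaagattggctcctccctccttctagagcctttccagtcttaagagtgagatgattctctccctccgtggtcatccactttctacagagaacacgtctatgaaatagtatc
Mrc1, GRCm38.p6 chr2:14229164-14229463, plus strand: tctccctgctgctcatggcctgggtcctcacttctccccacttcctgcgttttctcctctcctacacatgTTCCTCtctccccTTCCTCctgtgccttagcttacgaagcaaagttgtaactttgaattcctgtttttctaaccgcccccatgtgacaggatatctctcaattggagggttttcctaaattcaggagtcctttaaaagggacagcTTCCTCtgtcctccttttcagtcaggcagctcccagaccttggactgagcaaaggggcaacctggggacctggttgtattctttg
The letters occurred once in the C1qb window, once in the C1qc window, 3 times in the Mrc1 window and 0 times in the Cd163 window. Of the 25 members, 21 had a promoter in the table, and 13 of these 21 (61.9%) held GAGGAA on either strand, against 28.3% of 27025 promoters of the same length. The longer GAGGAAGT, which contains the core, occurred in 4 of 21 (Ctss, Cd53, C1qc and Ctsc; 19%), against 3.28% of all promoters. A match describes letters in this window and was not tested as a binding site.

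Myeloid levels varied widely between tumours of the same group. As a summary, the log2 deviation of each of the 25 genes, Cd163 and Spi1 included, from its mean over the 16 tumours was averaged in each tumour. The average was 0.14 ± 0.32 in single TIC tumours, -0.09 ± 0.41 in lin- tumours and -0.22 ± 0.54 in primary tumours (SD, n = 9, 2 and 5). Single TIC tumours 1, 9 and 5 had the highest averages of their group, at 0.61, 0.55 and 0.44, and single TIC tumour 4 had the lowest, at -0.29. The lin- tumours lay at 0.20 and -0.38. The primary tumours lay at 0.48 (tumour 2), -0.05 (tumour 4), -0.11 (tumour 1), -0.47 (tumour 3) and -0.97 (tumour 5), so that primary tumour 2 ranked 3 of 16 and primary tumour 5 ranked 16 of 16. All 3 groups overlapped.

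The extremes came from few tumours. Primary tumour 5 had the lowest level of 15 of the 25 genes and a level above the gene's overall mean for only 1 of them. Single TIC tumour 1 had the highest level of 9 genes, among them Lyz1, Lyz2, Fcgr2b, Fcgr3, Tyrobp, Trem2 and Ms4a7, and single TIC tumours 5 and 9 lay above the overall mean for 24 genes each. Primary tumour 2 had the highest level of 5 genes, Cx3cr1, Laptm5, C1qb, Apoe and Lgmn. Primary tumour 2 also stood apart for other cell types: its average deviation was 1.78 over 12 T and NK cell genes, -2.18 over 16 fibroblast and matrix genes and -2.30 over 14 endothelial genes. Primary tumour 5 lay at -1.11, -1.31 and -1.01 on these same lists. The part of these differences in the myeloid levels was not tested.

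**Figure D1:**
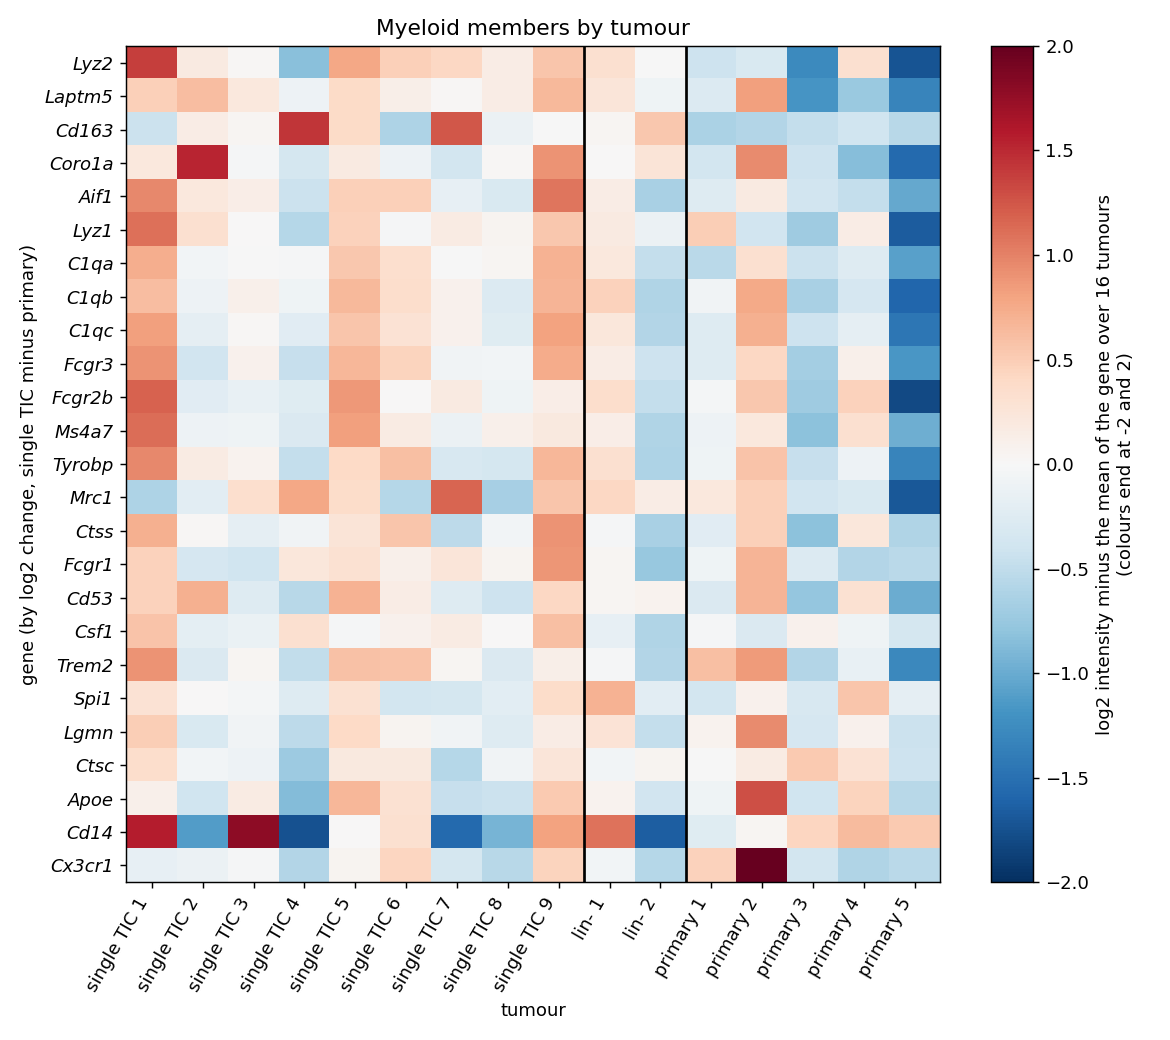
Log2 normalized intensity of each of the 25 measured genes minus its mean over 16 tumours (colour), by gene (rows, ordered by the log2 change between single TIC and primary tumours) and tumour (columns: 9 single TIC, 2 lin-, 5 primary). Single TIC tumours 1, 5 and 9 are mostly red, primary tumour 5 is mostly blue, and the rows of Cd163, Mrc1 and Cd14 differ from the rest.

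Single TIC tumours were set against primary tumours to ask how tumours regrown from 1 cell differ from spontaneous ones. Of the 25 myeloid genes, 20 (80%) had a mean in single TIC tumours above that in primary tumours, against 46.5% of all genes, and their median log2 change was 0.47, against -0.02 over all genes. None of the 25 passed limma's test at an adjusted p under 0.05, whereas 620 of 9903 genes (6.26%) did. At an unadjusted p under 0.05, 6 of 25 genes passed (24%; C1qa, Lyz2, Laptm5, Cd163, Aif1 and Lyz1), all higher in single TIC tumours, against 25.3% of all genes in either direction and 10.2% higher. Counted over both directions together, the members' share was thus near the background. The share that was higher was above it, 24% against 10.2%, but members that rise and fall together are not separate observations. Cd163 entered the test only through secondary tumours, so its place among the 6 is no support for a difference. With detection on at least 8 arrays required, which leaves out Cd163 and Spi1, 5 of 23 members and 2368 of 8864 genes had an unadjusted p under 0.05. Cd163 and Spi1 are also among the 20 with a higher mean, and without them the count was 18 of 23. The groups overlapped for all 25 genes, whereas 2.48% of all genes did not overlap. Nothing in the labels says that the tumours came from separate donors, so these p-values reflect only how much the arrayed tumours vary.

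Leaving out single primary tumours moved these values. Without primary tumour 5 the median log2 change was 0.24, and without primary tumour 2 it was 0.66 with 2 genes passing, Laptm5 and C1qa. With mean raw intensity of the array as a covariate the median was 0.28 and none of the 25 passed, while the count over all genes was 18.

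The growth factor Csf1 supports the survival of macrophages. Csf1 ranged between 7.66 and 8.46 in single TIC tumours (median 7.95), was 7.68 and 7.25 in lin- tumours, and was 7.83, 7.57, 7.94, 7.77 and 7.50 in primary tumours. Csf1 was higher in single TIC tumours by 0.29 (SE 0.14, adjusted p = 0.221) and lay above the primary mean in 8 of 9 tumours. Other growth factors and receptors of this axis gave no call: of 5 measured genes, Csf1 among them, 0 passed, and 1 was higher and 4 were lower (median -0.14). Kitl, the ligand of Kit, differed by -0.32 (SE 0.19, adjusted p = 0.294) and Csf2ra, a subunit of the receptor for Csf2, by -0.40 (SE 0.27, adjusted p = 0.374).

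The C1q chains assemble into the first component of the classical complement pathway and are made largely by macrophages. C1qa ranged between 8.98 and 9.76 in single TIC tumours (median 9.07), was 9.25 and 8.55 in lin- tumours, and was 8.49, 9.35, 8.59, 8.77 and 7.95 in primary tumours. All 9 single TIC tumours lay above 4 of the 5 primary tumours, and primary tumour 2 lay within their range. C1qa was higher by 0.65 (1.57-fold; SE 0.21, adjusted p = 0.0767), and passed only without primary tumour 2 (0.83, adjusted p = 0.0241). C1qb was higher by 0.60 (SE 0.30, adjusted p = 0.225) and C1qc by 0.53 (SE 0.29, adjusted p = 0.263), and without primary tumour 5 these differences were 0.30 and 0.25. All 3 chains lay above the primary mean in 9 of 9 single TIC tumours. Of 5 measured genes of the classical complement list, the 3 chains included, 5 were higher, against 46.5% of all genes, and 0 passed. C2, a protease of the pathway, was higher by 0.89 (SE 0.31, adjusted p = 0.0890).

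Lysozymes are bacteriolytic enzymes, and Lyz2 is the form of macrophages and neutrophils. Lyz2 ranged between 10.91 and 13.13 in single TIC tumours (median 12.16), was 12.07 and 11.74 in lin- tumours, and was 11.34, 11.44, 10.47, 12.07 and 10.02 in primary tumours. Single TIC tumour 4 was the low one of its group, and primary tumour 4 was the high one of its own. Lyz2 was higher by 1.03 (2.04-fold; SE 0.34, adjusted p = 0.0774), the largest difference among the 25 genes, with 8 of 9 single TIC tumours above the primary mean. It passed without primary tumour 4 (1.28, adjusted p = 0.0339) and without single TIC tumour 4 (1.18, adjusted p = 0.0373). A second Lyz2 probe detected on 16 arrays was higher by 0.95, and a dim one, detected on 2 arrays, differed by -0.11. Lyz1, the Paneth cell lysozyme, was higher by 0.65 (SE 0.30, adjusted p = 0.191), and by 0.34 without primary tumour 5. Its other kept probes were dim, detected on 3 and 4 arrays, and were higher by 0.63 and 0.97. Over the 16 tumours their r with the used probe was only 0.26 and 0.22, so the Lyz1 values rest on the used probe alone. Lyz1 and Lyz2 are close paralogs that lie next to each other on the chromosome, so their probes may share signal and their separate levels are uncertain.

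**Figure D2:**
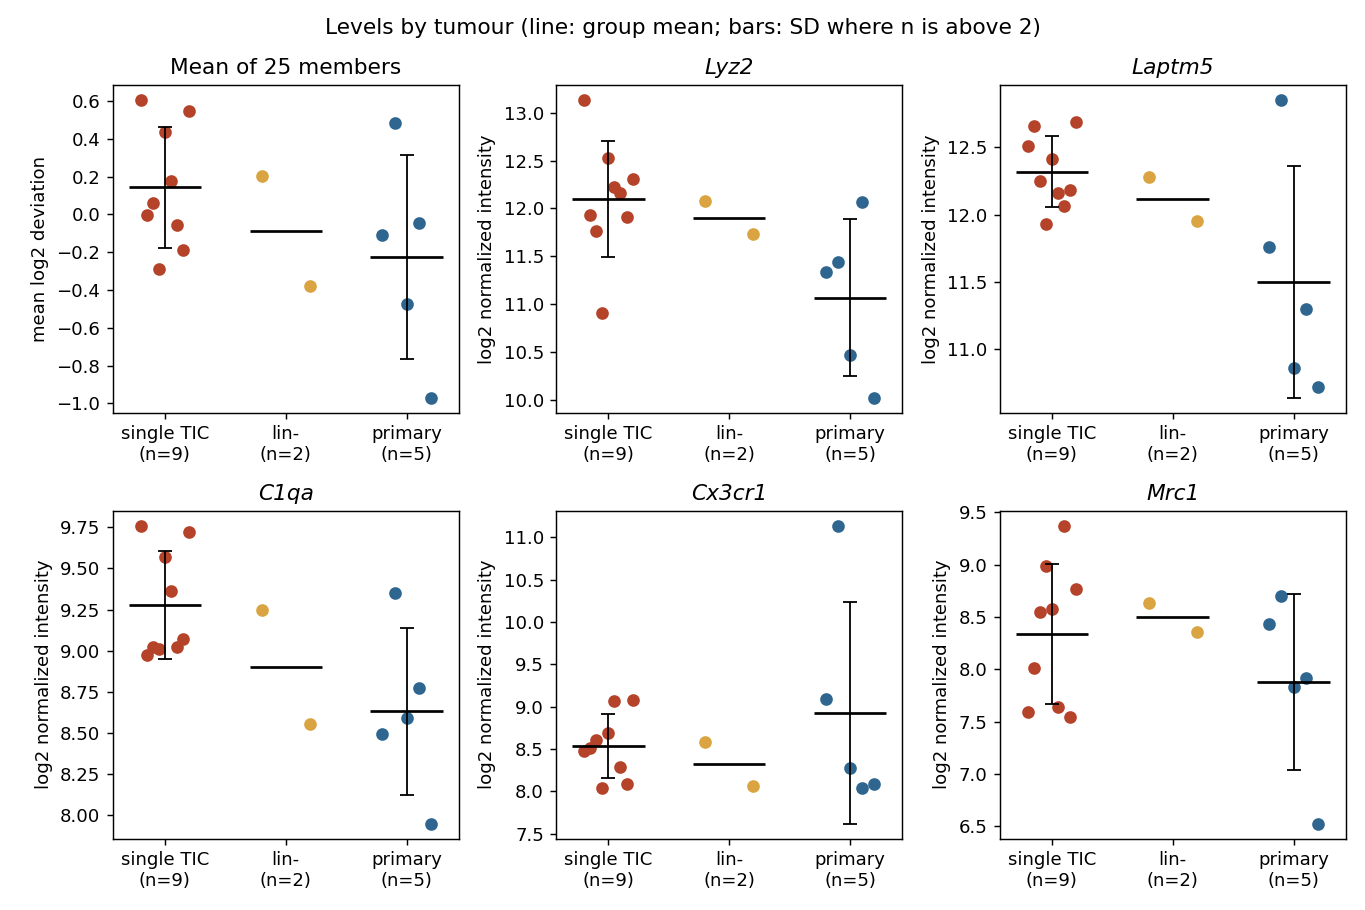
Levels by tumour for the average of the 25 genes (mean log2 deviation) and for Lyz2, Laptm5, C1qa, Cx3cr1 and Mrc1 (log2 normalized intensity), with points for tumours, lines for group means and bars for the SD in groups of 9 and 5. The groups overlap in every panel, and Cx3cr1 has 1 primary tumour at 11.14 above all others.

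Fc receptors bind antibody, and Tyrobp is the signalling adaptor of Trem2, a receptor for lipids and dying cells. Fcgr3 ranged between 9.04 and 10.40 in single TIC tumours (median 9.58), was 9.65 and 9.08 in lin- tumours, and was 9.24, 9.92, 8.82, 9.61 and 8.34 in primary tumours. Fcgr3 was higher by 0.52 (SE 0.28, adjusted p = 0.249), the inhibitory receptor Fcgr2b by 0.50 (SE 0.35, adjusted p = 0.394) and the high-affinity receptor Fcgr1 by 0.34 (SE 0.23, adjusted p = 0.383). Without primary tumour 5 the differences were 0.31 for Fcgr3 and 0.12 for Fcgr2b. Fcgr2b and Fcgr3 are close paralogs, and sharing of signal between their probes was not tested. Tyrobp was higher by 0.47 (SE 0.30, adjusted p = 0.344) and Trem2 by 0.24 (SE 0.32, adjusted p = 0.671), and without primary tumour 5 the differences were 0.21 and -0.05. In the wider list of Fc receptor and ITAM signalling genes, 15 of 15 measured genes were higher, 5 of them members, and 1 passed. Over all genes 46.5% were higher and 6.26% passed. Btk, a kinase downstream of these receptors in myeloid and B cells, rose by 0.75 (SE 0.20, adjusted p = 0.0368). Fcgr4, an activating receptor outside the members, was higher by 1.18 (SE 0.39, adjusted p = 0.0793).

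Cd163, the receptor for haemoglobin bound to haptoglobin, and Mrc1, the mannose receptor, mark alternatively activated and resident macrophages. Cd163 ranged between 4.50 and 6.55 in single TIC tumours (median 5.15), was 5.16 and 5.65 in lin- tumours, and was 4.48, 4.53, 4.64, 4.72 and 4.56 in primary tumours. Only single TIC tumours 4 (6.55) and 7 (6.36) and lin- tumour 2 (5.65) were detected, and the primary values were not well above background on any of 5 arrays. Cd163 was higher by 0.76 (SE 0.29, adjusted p = 0.112), but no fold can be bounded because the single TIC mean, 5.35, was below the lowest level detected on the primary arrays, 5.65 on average. Its second probe was detected on 0 arrays. Mrc1 ranged between 7.55 and 9.37 in single TIC tumours (median 8.54), was 8.63 and 8.36 in lin- tumours, and was 8.43, 8.70, 7.83, 7.92 and 6.52 in primary tumours. Mrc1 was higher by 0.46 (SE 0.36, adjusted p = 0.448), and by 0.12 without primary tumour 5, its lowest value.

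Cd14, the co-receptor for bacterial lipopolysaccharide, and Cx3cr1, the fractalkine receptor of monocytes and resident macrophages, had lower means in single TIC tumours. Cd14 had the widest spread among single TIC tumours, between 8.66 and 12.19 (median 10.41). It was 11.49 and 8.75 in lin- tumours and 10.16, 10.44, 10.84, 11.03 and 10.93 in primary tumours, which lay inside the single TIC range. Its difference was -0.37 (SE 0.60, adjusted p = 0.745), and 0.07 with raw intensity as a covariate. Cx3cr1 ranged between 8.04 and 9.08 in single TIC tumours (median 8.51), was 8.58 and 8.06 in lin- tumours, and was 9.10, 11.14, 8.27, 8.04 and 8.09 in primary tumours. Its difference was -0.39 (SE 0.40, adjusted p = 0.583), and it was 0.17 without primary tumour 2, the single high value.

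Laptm5, a lysosomal membrane protein of blood cells, ranged between 11.93 and 12.69 in single TIC tumours (median 12.25), was 12.28 and 11.95 in lin- tumours, and was 11.76, 12.85, 10.86, 11.30 and 10.72 in primary tumours. All 9 single TIC tumours lay above 4 of 5 primary tumours and below primary tumour 2. Laptm5 was higher by 0.82 (1.77-fold; SE 0.27, adjusted p = 0.0787). It passed without primary tumour 2 (1.16, adjusted p = 0.00605) and when arrays were weighted by quality (0.99, adjusted p = 0.0207). The lysosomal proteases were mixed: Ctss, which trims the invariant chain of MHC class II, was higher by 0.37 (SE 0.25, adjusted p = 0.378; leaving out primary tumour 3 gave 0.21), whereas the differences were -0.17 for Ctsc (SE 0.19, adjusted p = 0.601) and -0.08 for the asparagine endopeptidase Lgmn (SE 0.22, adjusted p = 0.849). Apoe, a lipid carrier secreted by macrophages and other cells, differed by -0.18 (SE 0.30, adjusted p = 0.754), and by 0.11 without primary tumour 2, where it was highest at 13.21. In the wider list of lysosome and phagocyte oxidase genes, 0 of 20 measured genes passed, 11 were higher and 9 lower (median 0.05). Over all genes 46.5% were higher. Among them Ctsk, a collagen-cleaving protease, was higher by 1.47 (SE 0.43, adjusted p = 0.0529).

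Among genes shared with other leukocytes, Aif1, the actin-binding protein Iba1, ranged between 9.15 and 10.66 in single TIC tumours (median 9.80), was 9.74 and 8.93 in lin- tumours, and was 9.33, 9.77, 9.21, 9.11 and 8.57 in primary tumours. Aif1 was higher by 0.66 (SE 0.26, adjusted p = 0.130), with 8 of 9 single TIC tumours above the primary mean. Coro1a, an actin regulator of leukocytes, was higher by 0.67 (SE 0.36, adjusted p = 0.253), the macrophage membrane protein Ms4a7 by 0.47 (SE 0.27, adjusted p = 0.280) and the tetraspanin Cd53 by 0.31 (SE 0.28, adjusted p = 0.516). Without primary tumour 5 these differences were 0.39, 0.29 and 0.12, and without primary tumour 2 Coro1a was higher by 1.02 and Cd53 by 0.54. Spi1, which encodes PU.1, was near the detection limit and differed by 0.018 (SE 0.19, adjusted p = 0.968), a direction that turned to -0.019 with median scaling. Coro1a was highest in single TIC tumour 2 (11.62), the tumour with the highest average over T and NK genes (1.73) and over B and plasma cell genes (1.72) of its group. The part of lymphocytes in that value was not tested.

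**Figure D3:**
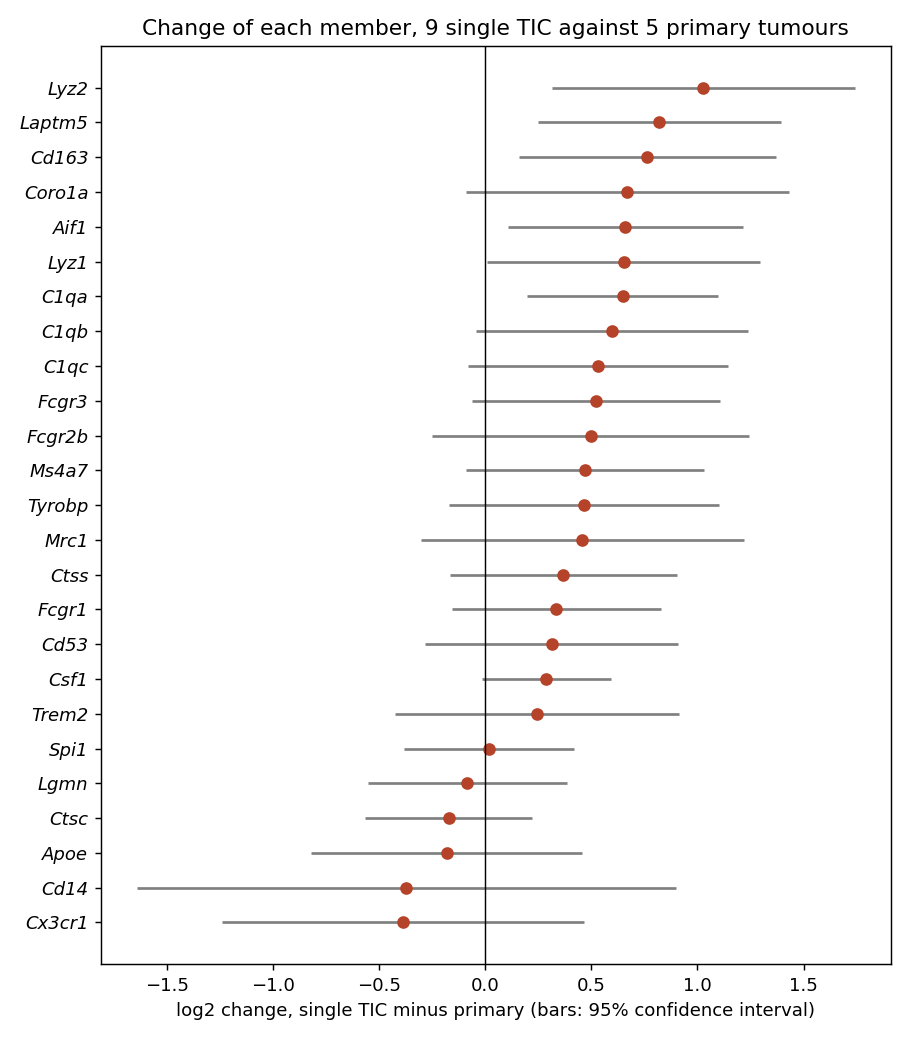
Log2 change of each of the 25 genes, single TIC minus primary tumours (points), with 95% confidence intervals (bars; 9 and 5 tumours). Points lie between -0.39 (Cx3cr1) and 1.03 (Lyz2), 20 of 25 to the right of 0, and none passes an adjusted p under 0.05.

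Adgre1, counted apart, ran with the set. Adgre1 averaged 9.08 ± 0.34 in single TIC tumours, 8.84 in lin- tumours and 8.66 ± 0.54 in primary tumours. Its mean in single TIC tumours was higher by 0.42 (SE 0.22, adjusted p = 0.242), in 8 of 9 tumours above the primary mean, and its second detected probe was higher by 0.44. Counted as a member, it left the count of genes passing at 0 and the median at 0.46.

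Genes of the attractants and of other cell types were compared in the same fit, as a description beside the members. Of 14 measured genes for monocyte attractants and their receptors, Cx3cr1 among them, 4 rose in single TIC tumours and 0 fell: the chemokines Ccl8 by 2.95 (SE 0.70, adjusted p = 0.0233), Ccl7 by 1.55 (SE 0.37, adjusted p = 0.0233) and Ccl9 by 1.28 (SE 0.35, adjusted p = 0.0418), and the gene of the attractant chemerin, Rarres2, by 1.85 (SE 0.46, adjusted p = 0.0279). Ccr1, Ccr2 and Cmklr1, receptors for these attractants, were detected on too few arrays to be tested. Of 12 pan-leukocyte genes, 1 rose, Arhgdib, expressed mainly in blood cells, by 0.95 (SE 0.26, adjusted p = 0.0406), and the summed intensity of the list ran between 4430 and 12900 in single TIC tumours, between 5820 and 6550 in lin- tumours and between 4570 and 9070 in primary tumours. Ptprc passed the detection rule but was detected in only 1 single TIC, 0 lin- and 1 primary tumour, so its values were mostly near background. Cd48 and Cd37 were not detected on enough arrays.

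Stromal and antigen-presenting cells were read from their own lists. Of 16 fibroblast and matrix genes, 0 passed, 13 were higher in single TIC tumours and the median log2 change was 1.12. Their summed intensity ran between 6050 and 17200 in single TIC tumours, between 12600 and 14400 in lin- tumours and between 3120 and 15000 in primary tumours, and Postn was not detected on enough arrays. Of 14 endothelial genes, 1 rose (Ramp2, by 1.33, SE 0.32, adjusted p = 0.0233), 13 were higher and the median was 0.82. Their sums were 4100 to 6790 in single TIC tumours, 5350 to 5920 in lin- tumours and 763 to 5860 in primary tumours, and Kdr was not detected on enough arrays. Of 9 dendritic cell and MHC class II genes, 0 passed and 9 were higher (median 0.76). Among them H2-Aa and Ccr7 were detected in 0 primary tumours. Both entered only through secondary tumours, so their direction is no support for a difference. H2-Eb1 was detected in only 3 single TIC tumours and 1 primary tumour. Their sums were 6120 to 31300 in single TIC tumours, 6480 to 14100 in lin- tumours and 3250 to 13000 in primary tumours, and Itgax, Flt3, Xcr1, Clec9a, Zbtb46 and Cd209a were not detected on enough arrays.

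Lymphoid, neutrophil and mast cell lists gave no calls. The 12 measured T and NK cell genes had a median log2 change of 0.32, the 6 B and plasma cell genes 0.29, and the 5 neutrophil genes -0.14, with 0 passing in each list. Detection was in 0 primary tumours for Lat of the T and NK list and for Cd79a, Cd22, Fcrla and Mzb1 of the B list. These genes entered only through secondary tumours, so their direction is no support for a difference. Among the neutrophil genes, S100a9 was detected in only 1 single TIC, 1 lin- and 1 primary tumour. Lcn2 averaged 15.93 in single TIC and in primary tumours (SD 0.03 and 0.04), so it hardly varied. The T and NK sums were 1570 to 10000 in single TIC tumours, 2330 to 2960 in lin- tumours and 1780 to 8920 in primary tumours. The neutrophil markers Mpo, Elane, Camp, Ngp, Cxcr2, Mmp8, Retnlg, Stfa1 and Stfa2 were not detected on enough arrays, and neither were the T cell markers Cd4 and Cd8a or the B cell marker Ms4a1. Of 10 mast cell genes, only Fcer1a was measured. Of 11 mammary epithelial genes, Cldn7 rose by 0.54 (SE 0.12, adjusted p = 0.0179) and Esrp1 fell, with a log2 change of -0.28 (SE 0.08, adjusted p = 0.0437). Keratin genes Krt19 and Krt5 were among 3 not detected on enough arrays, while Krt8 was measured. The part of any of these cell types in the myeloid levels was not tested.

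Lin- tumours were set against the same primary tumours in the same fit. Of the 25 genes, 16 (64%) had a higher mean in lin- than in primary tumours, against 46.8% of all genes, with a median log2 change of 0.14. The 16 include Cd163 and Spi1, and with detection on at least 8 arrays required the count was 14 of 23. The median was -0.22 without lin- tumour 1 and -0.13 without primary tumour 5. By limma's test 0 of 25 passed, as did 0 of 9903 genes (0%), and at an unadjusted p under 0.05 the counts were 0 of 25 and 975 of 9903 (9.85%). Among genes detected on all 16 arrays the largest differences were those of Lyz2 at 0.84 (SE 0.50, adjusted p = 0.613), Mrc1 at 0.62 (SE 0.54, adjusted p = 0.764), Laptm5 at 0.62 (SE 0.41, adjusted p = 0.653), Cx3cr1 at -0.60 (SE 0.60, adjusted p = 0.811) and Coro1a at 0.58 (SE 0.54, adjusted p = 0.788). Without primary tumour 5 Mrc1 differed by 0.28 and Coro1a by 0.30, and without primary tumour 2 Laptm5 differed by 0.95, Coro1a by 0.93 and Cx3cr1 by -0.048. Cd163 was above background in 1 of 2 lin- tumours and in 0 of 5 primary tumours, and its fitted difference of 0.82 (SE 0.43, adjusted p = 0.545) is no measured fold.

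Single TIC tumours had a higher mean than lin- tumours for 21 of 25 genes (84%), against 48.5% of all genes, with a median log2 change of 0.21. That share hung on lin- tumour 2: without it, 14 of 25 genes had a higher mean in single TIC tumours. Without lin- tumour 1 the count was 21 of 25. By limma's test 0 of 25 and 0 of 9903 genes (0%) passed, and at an unadjusted p under 0.05 the counts were 1 of 25 and 167 of 9903 (1.69%). The 1 was Csf1, higher by 0.54 (SE 0.20, adjusted p = 1.00). Fcgr1 was higher by 0.53 (SE 0.33), Aif1 and Ctss by 0.52 (SE 0.37 and 0.35), Trem2 by 0.44 (SE 0.44) and Ms4a7 by 0.43 (SE 0.37), each with adjusted p = 1.00. Lin- tumour 2 was among the 4 lowest of all 16 tumours for 15 of the 25 genes, and lin- tumour 1 for 0.

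With all 11 secondary tumours against the 5 primary tumours, a comparison that shares its tumours with those above, the median log2 change was 0.41 and 20 of 25 genes (80%) had a higher mean, against 46.7% of all genes. None of the 25 passed, against 758 of 9903 genes (7.65%), and 6 of 25 had an unadjusted p under 0.05, against 26.3% of all genes. Cd163 is among the 6 but entered the test only through secondary tumours, so it is no support for a difference. With detection on at least 8 arrays required, which leaves out Cd163 and Spi1, the counts were 5 of 23 members and 2460 of 8864 genes. A higher mean was then found for 18 of 23 members. The smallest adjusted p was that of Lyz2 (0.99, SE 0.32, adjusted p = 0.0636), followed by Laptm5 (0.78, SE 0.26, adjusted p = 0.0689), Cd163 (0.77, SE 0.27, adjusted p = 0.0823) and C1qa (0.58, SE 0.21, adjusted p = 0.0929). The value of Cd163 is no measured fold, since it was above background in 3 of 11 secondary tumours and in 0 of 5 primary tumours. Coro1a was higher by 0.65 (SE 0.34, adjusted p = 0.227) and Lyz1 by 0.62 (SE 0.29, adjusted p = 0.183), and without primary tumour 5 these differences were 0.38 and 0.31. Without primary tumour 2, 3 genes passed: Laptm5 (adjusted p = 0.00407), C1qa (0.0286) and Coro1a (0.0446). Lyz2 passed without primary tumour 4 (adjusted p = 0.0252) and without single TIC tumour 4 (adjusted p = 0.0311).

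Within the 9 single TIC tumours most myeloid genes were high in the same tumours, whereas Cd163 and Mrc1 were highest in tumours 4 and 7. Mrc1 did not run against the rest throughout. It ranked 3 of 9 in tumour 9 and 4 of 9 in tumour 5, and its r with C1qb was 0.024. Over the 300 pairs of the 25 genes, Pearson's r had a median of 0.62 and a range of -0.89 to 0.97. It was above 0.8 for 58 pairs and below 0 for 46, and 42 of those 46 involved Cd163 or Mrc1. Cd163 was not above background in 7 of the 9 tumours, so every r given for it rests mostly on values near background. These values are a description over 9 tumours that share array and tissue, without a test. The primary and lin- groups, with 5 and 2 tumours, were too small for correlations.

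Pairs with a shared complex, receptor, adaptor or lineage were tested by two-sided exact permutation, and 9 of 15 such pairs had both genes measured. By r and by Spearman's rho, 8 of 9 passed after Benjamini-Hochberg adjustment over the 9. The 8 include Cd163 with Mrc1, where most Cd163 values were near background. Pairs outside this list also had high r, such as Fcgr2b with Ms4a7 (0.96) and Trem2 with Lgmn (0.94). With a median r of 0.62 over all 300 pairs, a pass does not show that the shared role links the genes. The share of all 300 pairs that would pass was not tested. C1qb and C1qc correlated most closely, with r = 0.97 (adjusted exact permutation p = 0.000818) and rho = 0.92 (adjusted exact permutation p = 0.0118), and r was 0.97 without the 2 tumours farthest from the C1qb median. C1qc followed C1qa with r = 0.96 (rho = 0.80) and C1qb followed C1qa with r = 0.93 (rho = 0.78), with adjusted exact permutation p = 0.00172 and 0.00460 for r. The 3 C1q genes lie next to each other in the order C1qb, C1qc, C1qa. Apoe and C1qb had r = 0.84 (rho = 0.80, adjusted exact permutation p = 0.00847 for r).

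The remaining pairs joined lysozymes, receptors and lysosomal proteins. Lyz1 and Lyz2 had r = 0.93 (rho = 0.80, adjusted exact permutation p = 0.00475 for r), and r was 0.62 without the 2 tumours farthest from the Lyz1 median. Their probes may share signal, so this r may not reflect 2 separate genes. Tyrobp and Trem2 had r = 0.83 (rho = 0.83, adjusted exact permutation p = 0.00847 for r), and r = 0.64 without 2 tumours. Fcgr2b and Fcgr3 had r = 0.78 (rho = 0.78, adjusted exact permutation p = 0.00847 for r), and r = 0.68 without 2. Ctss and Laptm5 did not pass, with r = 0.60 (rho = 0.67, adjusted exact permutation p = 0.0884 for r). The adjusted exact permutation p for rho was 0.0194 for each passing pair other than C1qb with C1qc.

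Cd163 and Mrc1 had r = 0.84 (rho = 0.80, adjusted exact permutation p = 0.00521 for r and 0.0194 for rho). Both were highest in single TIC tumours 4 and 7, the only 2 single TIC tumours in which Cd163 was detected. Mrc1 was lowest in tumours 1, 6 and 8. The other Cd163 values were near background, so the p-values of this pair are no support for a link. Tumours 4 and 7 were also the 2 farthest from the Cd163 median. Without them r was 0.69, on undetected Cd163 values alone. Against the adaptor Tyrobp, Cd163 had r = -0.73, and against Ctsc r = -0.89. Single TIC tumour 4 ranked first of 9 for Cd163, 2 of 9 for Mrc1, 7 of 9 for C1qb and 9 of 9 for Tyrobp, and single TIC tumour 1 ranked 8 of 9 for Mrc1, 3 of 9 for C1qb and 1 of 9 for Tyrobp. The average over fibroblast and matrix genes had r = 0.78 with Mrc1, 0.77 with Cd163 and -0.45 with C1qb over the same tumours. The part of stromal content in these patterns was not tested.

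**Figure D4:**
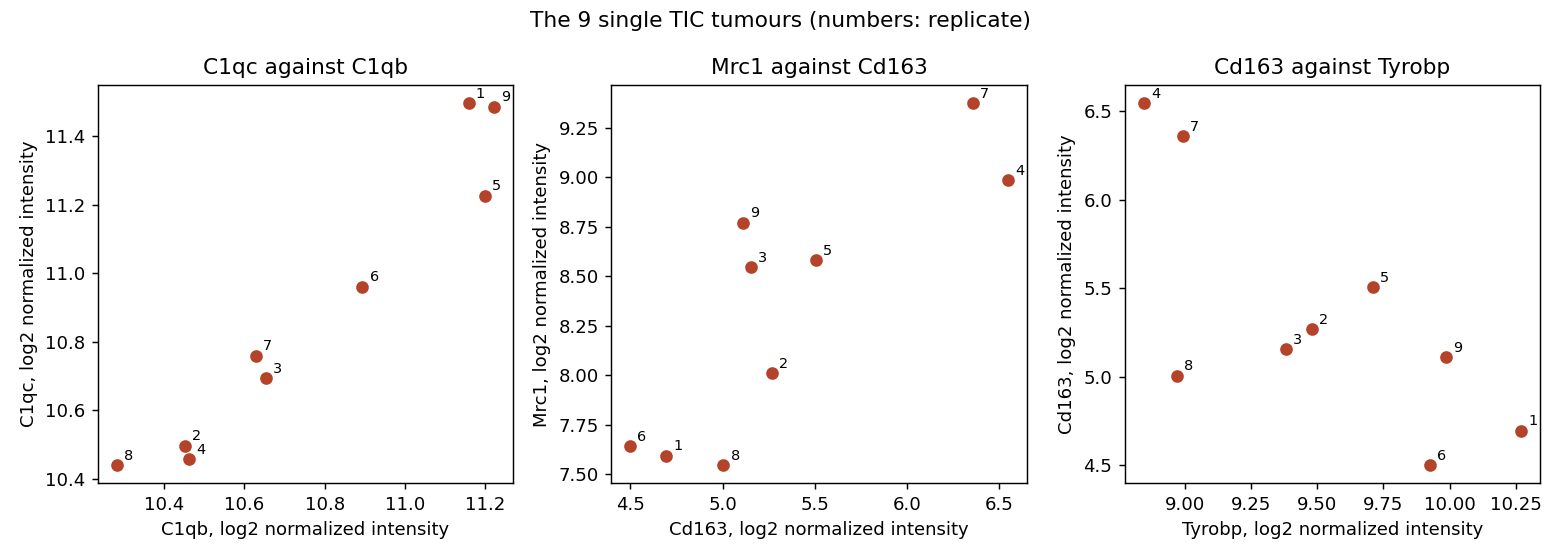
Log2 normalized intensities in the 9 single TIC tumours (points, labelled by replicate number) of C1qc against C1qb, Mrc1 against Cd163, and Cd163 against Tyrobp. C1qc and C1qb lie along 1 line (r = 0.97), tumours 4 and 7 are highest for both Cd163 and Mrc1 (r = 0.84), and Cd163 and Tyrobp have r = -0.73, with tumour 8 low for both. The Cd163 values other than those of tumours 4 and 7 were not above background.

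Members differed in how closely each followed the average of the other 24, here described over 16 tumours after each group's mean was subtracted. C1qc, C1qb, Tyrobp, Fcgr3, C1qa and Lgmn had r of 0.97, 0.96, 0.95, 0.94, 0.94 and 0.93, and 12 of 25 genes exceeded 0.8. Csf1 (0.35), Cd14 (0.36), Mrc1 (0.33) and Cd163 (-0.43) were the 4 lowest. Of 9878 tested genes outside the set, 49 (0.496%) exceeded 0.8 with the average of the 25. The 10 closest were Adgre1 (0.95), Evi2a (0.93), Gpr65 (0.92), Apobec1 (0.92), Lat2 (0.91), Nckap1l (0.90), Abi3 (0.90), Pld4 (0.90), Tlr7 (0.89) and Vcam1 (0.89). None of these 10 passed the test between single TIC and primary tumours, with changes from -0.21 (Tlr7) to 0.65 (Lat2, adjusted p = 0.0805).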

How the data were processed

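Total RNA of 16 tumours was measured with 1 Illumina array each. The deposited table holds raw intensity and a detection p-value for 25697 probes on each array, per the file headers, and BeadStudio is named in the submitters' processing notes. The authors' processed intensity table, on a linear scale, was used as an alternative. The sources used here name neither a genome build nor a chip assignment. Of the probes, 23978 had 1 gene symbol, 1719 had none and 0 had several.

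Intensities were corrected for background from the detection p-values (limma nec, offset 16), quantile normalized and taken to log2. Probes with a detection p-value under 0.05 on at least 2 arrays were kept (14520), with the brightest per gene (9903 genes). Groups were compared in limma 3.58.1 (R 4.3.3) with 3 group means, or 2 for all secondary tumours, two-sided, with Benjamini-Hochberg adjustment over all genes and a threshold of 0.05. Every adjusted p of a gene comes from limma. Pairs of genes were tested by exact permutation (scipy 1.17.1). The test was checked on simulated data. Replicate numbers follow deposition order and only name a tumour. Labels name no batch, so no within-batch value could be given.

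The myeloid genes, the other gene lists and the pairs were chosen with earlier results of these data known. All measured myeloid genes are named for single TIC against primary tumours, the 6 with the largest difference in other comparisons, up to 4 genes with the smallest p from each other list, and the 10 genes most like the myeloid average. Genes named outside these rules were chosen after their values were seen. Alternatives covered background correction, offset, normalization, the authors' values, detection filter, probe choice, array weights, an intensity trend, raw intensity as a covariate and leaving out each tumour.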

Additional observations from a re-analysis of the deposited data

How the results depend on the processing

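No paired analysis was possible because the labels give no replicate numbers shared between groups. Between single TIC and primary tumours, genes other than Spi1, Lgmn, Cd14, Cx3cr1, Apoe and Trem2 kept the direction of their change in every setting run. Counting Adgre1 as Emr1 was added after seeing the data and changed no call. For single TIC against primary tumours the genes called were 18 with raw intensity as a covariate and 262 to 784 when each tumour was left out, the myeloid genes called were 1 with array weights and 0 to 2 on leaving out tumours, and their median was 0.24 to 0.66. Higher genes were 34.0% of those called, 40.5% with median scaling and 66.7% with the covariate. Signs turned for Spi1 with median scaling (-0.019), Lgmn with array weights (0.016) and Cd14 with the covariate (0.068). On leaving out tumours the ranges were -0.064 to 0.17 for Spi1, -0.61 to 0.17 for Cx3cr1, -0.36 to 0.11 for Apoe, -0.21 to 0.13 for Lgmn and -0.050 to 0.49 for Trem2. For all secondary tumours the genes called were 32 with the covariate and 373 to 947 on leaving out tumours. The myeloid genes called were 1 with no background correction (Cd163), 1 with the authors' values (Cd163), 1 with array weights (Laptm5) and 0 to 3 on leaving out tumours, with a median of 0.15 to 0.62. For lin- against primary tumours the genes called were 1 with no background correction, the authors' values, offset 50, no detection filter or an intensity trend, 10 with array weights and 0 to 7 on leaving out tumours. The myeloid median was -0.013 with the covariate and -0.22 to 0.54 on leaving out tumours, and 0 myeloid genes passed. For single TIC against lin- tumours 1 gene was called with array weights and 0 to 1 on leaving out tumours, with a myeloid median of 0.03 to 0.62. Of the gene pairs, 8 to 9 passed on leaving out tumours. The causes were not tested. Cd163 and Spi1, detected on 3 arrays each, are limited by signal over background. Cd163 entered the tests only through secondary tumours, so its calls are no support for a difference.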

Other observations

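Several genes outside the members followed Mrc1 in the 9 single TIC tumours, in which Mrc1 and C1qb had r = 0.024 with each other. These correlations were picked out after their values were seen, are given without a test, and rest on 9 tumours that share tissue and array. Folr2, the folate receptor of resident macrophages, followed Mrc1 with r = 0.98 (rho = 0.97, and r = 0.96 without single TIC tumours 8 and 1, the farthest from the Mrc1 median), and its r with C1qb was 0.11. Of the other activation genes, coagulation factor F13a1 followed Mrc1 with r = 0.78 (rho = 0.85; -0.45 with C1qb), Retnla, induced by interleukin 4 in mice, with 0.77 (rho = 0.75; -0.23), and the lectin Clec10a with 0.70 (rho = 0.57; -0.42). Folr2 was detected in 6 of the 9 tumours, F13a1 in 8, and Retnla and Clec10a in 7 each. Over the 18 measured activation genes, r with Mrc1 was above 0 for 12, and below 0 for others such as Cd40 (-0.41) and Mmp12 (-0.39). The average over fibroblast and matrix genes had r = 0.78 with Mrc1, so following Mrc1 was not particular to myeloid genes. From the lysosomal list, the protease Ctsk had r = 0.91 with Mrc1 (rho = 0.88) and -0.31 with C1qb. Among the attractants, r with Mrc1 was 0.83 for Ccl8, 0.79 for Ccl6, 0.65 for Ccl9 and 0.45 for Ccl7, and r with C1qb was -0.20, 0.18, 0.092 and 0.37 for the same genes.

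Hmox1, the haem-degrading enzyme, had r = -0.64 with Mrc1 and 0.50 with C1qb, and the attractant Ccl3 had -0.55 and 0.50. Between single TIC and primary tumours 0 of 18 measured activation genes passed limma's test, against 6.26% of all genes. At an unadjusted p under 0.05 there were 7 of the 18, against 25.3% of all genes in either direction. Genes that rise and fall together are not separate observations. Retnla was higher by 2.37 (SE 0.75, adjusted p = 0.0709), but was detected in only 2 of 5 primary tumours. The co-stimulatory receptor Cd40 was higher by 1.06 (SE 0.34, adjusted p = 0.0724), Hmox1 by 1.39 (SE 0.50, adjusted p = 0.105) and the membrane protease Mmp14 by 0.57 (SE 0.22, adjusted p = 0.117). The summed intensity of the list was 7210 to 35800 in single TIC tumours, 15000 to 26700 in lin- tumours and 12400 to 21200 in primary tumours, and Il6, Cd80, Il10 and Cd209a were not detected on enough arrays.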
